A study of Mus musculus with 6 samples.

Results

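The mRNA levels of Trp53, which encodes the transcription factor p53, and of 9 genes that p53 is known to activate were followed in mouse embryonic fibroblast lines that carry or lack cryptochromes. The 10 genes were taken as a named list of Trp53, Mdm2, Ccng1, Bax, Bbc3, Pmaip1, Sesn1, Zmat3, Phlda3 and Eda2r, and their measured values were not part of the rule. The list was, however, chosen with earlier results of these data known. All 10 are among the 27179 genes of the count tables, and all 10 passed the filter on low counts that left 14069 genes for the tests.

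The libraries came from 3 lines with 2 libraries each, made from separate RNA preparations of untreated cells. The parental CPN-/- line is a mouse embryonic fibroblast (MEF) line with the alleles Cry1-/-, Cry2-/-, Per1-/-, Per2-/-, Nr1d1-/- and also Nr1d2-/-, and all 3 lines lack the PER and NR1D proteins, which are repressors of the circadian clock. The CPN-/- CRY1 and CPN-/- CRY2 lines are this line after infection with a virus that carries Cry1 or Cry2, which is then expressed from the viral promoter and not from its own. Each was grown from a single drug-resistant colony, so that an effect of the cryptochrome and a property of the colony cannot be told apart, and the age of the embryos and the p53 genotype of the line are not given in the sources used here. The comparisons address which genes differ in a line with CRY1 or CRY2 when no PER or NR1D protein is present. No CPN-/- line infected with an empty vector and selected in the same way is described. Effects of infection and of drug selection therefore cannot be told apart from those of the cryptochrome either.

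p53 is a transcription factor that is kept scarce by the ubiquitin ligase MDM2 and that accumulates after DNA damage and other stresses. It binds pairs of a short consensus, the p53 half-site, and raises genes that arrest the cell cycle, promote apoptosis, lower oxidative stress and, through Mdm2, end its own response. p53 is mostly controlled as a protein, and its mRNA is a poor guide to its activity. Cryptochromes are repressors of CLOCK-BMAL1, the activator that binds the E-box of clock genes.

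The libraries held between 25957409 and 36106949 counts, and levels are given as CPM, in which a count is divided by the library total after TMM scaling (factors from 0.991 to 1.01). Counts in bulk cultures cannot tell fewer expressing cells from less RNA per cell. Cry1 mRNA was at 115 to 125 CPM in CPN-/-, 165 to 190 in CPN-/- CRY1 and 48.3 to 51.0 in CPN-/- CRY2, and Cry2 mRNA at 129 to 136, 50.7 to 51.7 and 349 to 351 CPM. Each cryptochrome was thus highest in the line labelled with it, although the knocked-out genes still gave counts in CPN-/-. Of 10 fibroblast markers, 8 had at least 10 counts in every library, while Thy1 had 1 to 7 and Dcn 1 to 61 counts. The summed fibroblast markers were at 11200 to 14100 CPM in CPN-/-, 13600 to 13900 in CPN-/- CRY1 and 17400 to 17800 in CPN-/- CRY2. Epcam, Cd3e and Hbb-bs had 0 counts in every library, and of 15 epithelial, endothelial and blood markers only Cd68 reached 10 counts in every library.

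The libraries of CPN-/- stood apart from each other. The difference between replicate 2 and replicate 1 had an SD of 0.375 on the log2 scale in CPN-/-, against 0.153 in CPN-/- CRY1 and 0.163 in CPN-/- CRY2. In CPN-/- this difference ran with the exonic length of the gene, the number of bases in its annotated exons, with a Spearman correlation of -0.70 across 12478 genes, against 0.21 and -0.29 in the other lines. The genes share the libraries, and the correlation is a description. Short genes were higher and long genes lower in replicate 2, with a median difference of 0.41 in the shortest 1250 genes (median 1037 bases) and -0.53 in the longest 1247 (median 8753 bases). Bax, the shortest of the 10 genes with 867 exonic bases, followed this with a difference of 0.66, Phlda3 with 1435 bases had 0.45, and Eda2r with 4797 bases had -0.55. Zmat3, the longest with 7797 bases, had -0.24, Pmaip1 had 0.37 on 17 and 18 counts, and Trp53, Mdm2, Ccng1, Bbc3 and Sesn1 lay between -0.22 and 0.06. Values with 1 CPN-/- library left out are given beside the differences from CPN-/- whose call they change, and changes of direction at the end. For the direct comparison of the reconstituted lines, calls gained in this way are given as counts. In these fits the CPN-/- library that remains is assumed to vary like the other lines. Their p-values thus leave out the large CPN-/- difference.

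**Figure D1:**
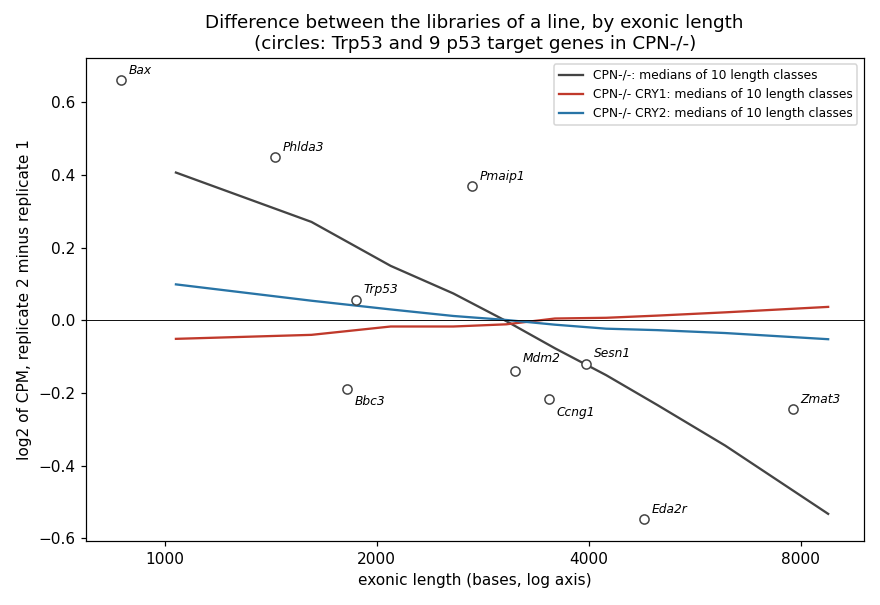
Difference in log2 CPM between replicate 2 and replicate 1 of each line (y axis) against exonic length in bases (x axis, log scale); lines join the medians of the tested genes in 10 classes of length, and circles are Trp53 and the 9 p53 target genes in CPN-/-. The CPN-/- line falls from 0.41 to -0.53, the lines of CPN-/- CRY1 and CPN-/- CRY2 stay within 0.10 of 0, and Bax and Eda2r lie at the ends of the circles with 0.66 and -0.55.

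The promoter sequences were read for single p53 half-sites in front of these genes. RefSeq entries in GRCm38.p6, the mm10 build, were found for 8 of the 10 genes, and none was found for Zmat3 and Pmaip1. The 250 bases before each annotated transcription start were searched on both strands for the p53 half-site consensus and for the E-box CACGTG, which do not overlap in these windows. The 8 genes have 11 such windows, and 5 of the 11, each of a different gene, held a half-site match, beside 7.13% of all 32851 windows of this length. An E-box was in 2 of the 11, beside 6.02% of all windows. No window held more than 1 half-site match, so none held a pair of matches such as p53 binds. Bases outside the windows, including introns, were not searched. The 4 target genes with a half-site match are shown with the matches in capitals, read 5′ to 3′ on the strand of the gene.
Mdm2: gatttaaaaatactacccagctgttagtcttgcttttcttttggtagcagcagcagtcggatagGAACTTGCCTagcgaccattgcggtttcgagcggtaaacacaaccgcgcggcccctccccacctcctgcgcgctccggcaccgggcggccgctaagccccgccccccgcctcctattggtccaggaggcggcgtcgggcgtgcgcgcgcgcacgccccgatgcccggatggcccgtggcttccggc
Ccng1: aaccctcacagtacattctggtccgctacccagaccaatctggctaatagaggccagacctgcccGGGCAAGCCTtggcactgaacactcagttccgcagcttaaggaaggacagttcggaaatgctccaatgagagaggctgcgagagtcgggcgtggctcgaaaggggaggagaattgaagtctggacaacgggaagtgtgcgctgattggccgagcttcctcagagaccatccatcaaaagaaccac
Bax: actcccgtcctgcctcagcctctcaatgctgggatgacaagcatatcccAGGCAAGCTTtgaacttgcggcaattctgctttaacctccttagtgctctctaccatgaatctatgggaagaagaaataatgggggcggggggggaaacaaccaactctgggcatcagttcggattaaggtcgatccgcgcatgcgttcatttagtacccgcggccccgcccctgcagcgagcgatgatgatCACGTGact
Sesn1: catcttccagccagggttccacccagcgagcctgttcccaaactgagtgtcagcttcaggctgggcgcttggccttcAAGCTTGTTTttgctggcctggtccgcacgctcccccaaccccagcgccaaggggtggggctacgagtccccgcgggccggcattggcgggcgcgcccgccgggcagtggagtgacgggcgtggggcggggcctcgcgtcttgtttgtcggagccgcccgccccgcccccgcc
The Mdm2 window is chr10:117710759-117711008 on the minus strand, and its match begins 186 bases before the start. In Ccng1, at chr11:40755287-40755536 on the minus strand, the match begins 185 bases before the start. The Bax window, chr7:45466899-45467148 on the minus strand, holds a half-site match 201 bases and an E-box 9 bases before the start. The Sesn1 window belongs to the downstream of its 2 annotated starts, at chr10:41887189-41887438 on the plus strand, with the match 173 bases before it. Trp53 itself had a match 75 bases before its start, Bbc3 had an E-box 64 bases before the last of its 3 starts, and the windows of Phlda3 and Eda2r held neither motif. Some windows overlap annotated exons of any gene, by 147 bases for Trp53, 25 for Ccng1 and 7 for Eda2r. The window of the upstream Sesn1 start, which is not shown, does so over all 250. A match is a string of letters and not a measured binding site.

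In CPN-/- CRY1, 4 of the 10 genes were higher than in CPN-/- and none was lower by edgeR's quasi-likelihood test at an adjusted p under 0.05. These were Ccng1, Bbc3, Pmaip1 and Eda2r, which are 1.62 to 2.92 times their CPN-/- level, while Trp53 differed by 0.02 on the log2 scale. The share of all tested genes that passed in this comparison was 24.3%, with 11.2% higher and 13.1% lower, and the median log2 fold change was 0.32 over the 10 genes and -0.01 over all tested genes. At an unadjusted p under 0.05, 6 of the 10 passed. The share of all tested genes at that limit is not given here and is at least 24.3%. Without CPN-/- replicate 1 the count was 8, with 6 higher and 2 lower, beside 63.0% of all genes tested in that fit. Without CPN-/- replicate 2 it was 7, with 6 higher and 1 lower, beside 44.1%, and with either CPN-/- CRY1 library left out it was 1, beside 4.64% and 4.74%. DESeq2's Wald test also called 4, all higher, beside 18.5% of all genes in that test.

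In CPN-/- CRY2, 3 of the 10 genes passed, against 6.66% of all tested genes. Ccng1 and Zmat3 were higher than in CPN-/-, where 2.58% of all tested genes were higher, and Pmaip1 was lower, where 4.08% were lower. The median log2 fold change was 0.26 over the 10 genes and -0.01 over all tested genes, and 5 of the 10 passed at an unadjusted p under 0.05. The share of all tested genes at that limit is not given here and is at least 6.66%. All 3 calls were lost when any CPN-/- CRY1 or CPN-/- CRY2 library was left out or when CPN-/- CRY1 was left out of the fit. In those fits 1.37% to 3.43% of all genes passed. Without CPN-/- replicate 1 the count was 10, with 6 higher and 4 lower, beside 56.4% of all genes tested in that fit, and without CPN-/- replicate 2 it was 5, beside 22.1%.

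Between the reconstituted lines, 2 of the 10 genes passed, against 16.3% of all tested genes. Pmaip1 was higher in CPN-/- CRY1, where 7.72% of all tested genes were higher, and Sesn1 was lower, where 8.57% were lower. The comparisons with CPN-/- share its libraries, so the difference between CPN-/- CRY1 and CPN-/- CRY2 was read only from this direct test. The share of all genes called by DESeq2's Wald test was 12.5%. The median log2 fold change over the 10 genes was 0.26, against -0.01 over all tested genes, and 5 passed at an unadjusted p under 0.05. At least 16.3% of all tested genes pass that limit. When only these 4 libraries were fitted the count was 8, with 6 higher and 2 lower in CPN-/- CRY1, beside 49.7% of all genes tested in that fit. It was also 8 with either CPN-/- library left out, beside 48.4% and 47.7%, where Mdm2 and Bax did not pass. It was 1 with any 1 of the 4 left out, beside 3.32% to 3.42%, and DESeq2's Wald test called 3 with all 6 libraries.

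**Figure D2:**
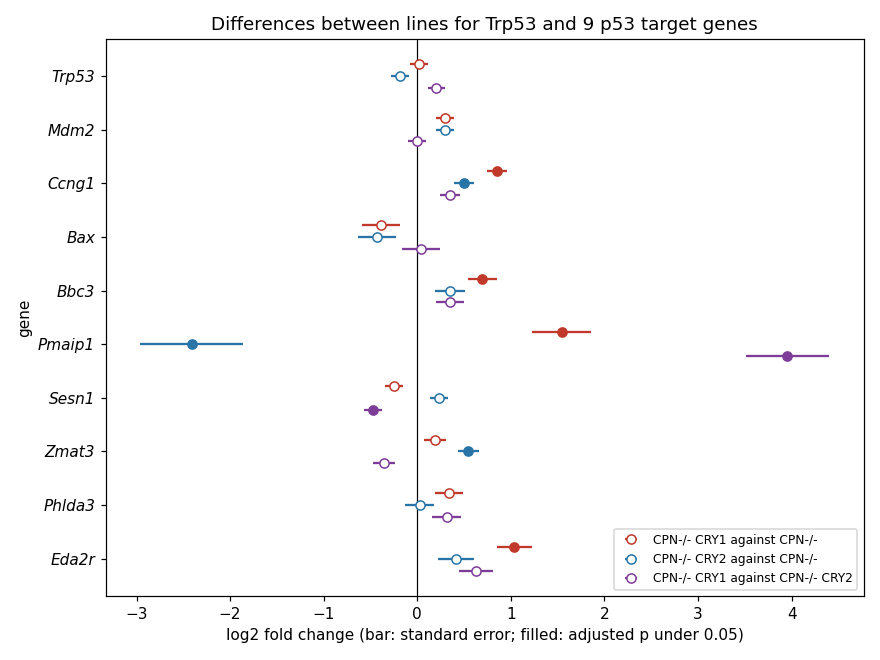
Log2 fold change (x axis) of Trp53 and 9 p53 target genes (y axis) in the 3 comparisons, with bars for the standard error of the edgeR fit and filled points for an adjusted p under 0.05. Pmaip1 lies on opposite sides of 0, at 1.54 in CPN-/- CRY1 and -2.41 in CPN-/- CRY2, and the points of Trp53 stay between -0.18 and 0.20.

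Trp53 (NCBI gene 22059, chr11:69580348-69591873, plus strand) was at 143 and 149 CPM in the CPN-/- libraries, 146 and 149 in the CPN-/- CRY1 libraries, and 124 and 133 in CPN-/- CRY2. The CPN-/- CRY2 libraries were the lowest, and those of the other lines overlapped. The log2 fold change was 0.02 ± 0.09 (SE, adjusted p = 0.89) for CPN-/- CRY1 and -0.18 ± 0.09 (SE, adjusted p = 0.26) for CPN-/- CRY2. The direct difference was 0.20 ± 0.09 (SE, adjusted p = 0.19), so that no comparison of Trp53 passed in the reported fit. The value for CPN-/- CRY1 was 0.21 (adjusted p = 0.047) with each library's trend with exonic length removed. That for CPN-/- CRY2 was -0.21 without CPN-/- replicate 1, and it lay between -0.225 and -0.008 over all 15 alternatives. With the length trend removed, Trp53 was at 139.8 and 128.2 CPM in CPN-/- and 130.3 and 136.3 in CPN-/- CRY2, and these lines overlapped. The direct difference passed in 4 of 15 alternatives and lay between 0.16 and 0.25 in all 15. An annotated processed pseudogene, Trp53-ps, matches a Trp53 transcript over 353 bases at 97.7% identity, and reads in that stretch could have been split or lost.

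Mdm2 and Ccng1 stand for the feedback and cell cycle arm. Mdm2 (NCBI gene 17246, chr10:117688875-117710758, minus strand) encodes the ligase that marks p53 for degradation, and was at 136 and 123 CPM in CPN-/-, 156 and 163 in the CPN-/- CRY1 libraries, and 161 and 157 in CPN-/- CRY2. All 4 libraries with a cryptochrome were above both CPN-/- libraries. The log2 fold changes were 0.29 ± 0.10 (SE, adjusted p = 0.066) and 0.30 ± 0.10 (SE, adjusted p = 0.13), neither of which passed, and both passed with either CPN-/- library left out, at 0.37 without replicate 1 and 0.23 and 0.24 without replicate 2. Both differences from CPN-/- also passed with each library's trend with exonic length removed. The reconstituted lines differed in Mdm2 by -0.001 ± 0.097 (SE).

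Ccng1 (NCBI gene 12450, chr11:40748552-40755309, minus strand) encodes cyclin G1, a p53 target that recruits protein phosphatase to MDM2. Its level was 130 and 112 CPM in CPN-/-, 216 and 218 in the CPN-/- CRY1 libraries, and 175 and 167 in CPN-/- CRY2. The lines did not overlap, with CPN-/- lowest and CPN-/- CRY1 highest. Ccng1 rose by 0.85 ± 0.11 (SE, adjusted p = 0.0029) on the log2 scale in CPN-/- CRY1, or 1.80-fold, and passed in all 15 alternatives, at 0.75 to 0.96. It rose by 0.50 ± 0.11 (SE, adjusted p = 0.040) in CPN-/- CRY2, or 1.41-fold. The difference between the reconstituted lines was 0.35 ± 0.11 (SE, adjusted p = 0.070) and did not pass.

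Bax, Bbc3 and Pmaip1 encode members of the BCL-2 family that promote apoptosis. Bax (NCBI gene 12028, chr7:45461695-45466903, minus strand), the effector that permeabilizes the outer mitochondrial membrane, was at 82.2 and 130 CPM in CPN-/-, 84.0 and 77.7 in the CPN-/- CRY1 libraries, and 75.5 and 81.3 in CPN-/- CRY2. A single library, CPN-/- replicate 2, stood above 5 others that lay close together. The fold changes of -0.39 ± 0.20 (SE, adjusted p = 0.19) and -0.43 ± 0.20 (SE, adjusted p = 0.24) did not pass. Without CPN-/- replicate 1 they were -0.68 and -0.73 and passed, without replicate 2 they were -0.02 and -0.06, and with each library's trend with exonic length removed they were -0.01 and -0.16. Bax shares 192 exonic bases on the same strand with Gm45808, which is not among the counted genes, so that counts of Bax could include its reads.

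Bbc3 (NCBI gene 170770, chr7:16308398-16318334, plus strand) encodes PUMA, which neutralizes the survival proteins of the BCL-2 family. Bbc3 was at 5.82 and 5.10 CPM in CPN-/-, 9.68 and 8.01 in the CPN-/- CRY1 libraries, and 6.61 and 7.30 in CPN-/- CRY2, from 133 to 350 counts per library. The lines did not overlap. Bbc3 rose by 0.69 ± 0.16 (SE, adjusted p = 0.021) on the log2 scale in CPN-/- CRY1, or 1.62-fold. The call was lost with any 1 of the CPN-/- CRY1 and CPN-/- CRY2 libraries left out and with only the 4 libraries of the comparison. Over all 15 alternatives the value stayed between 0.55 and 0.88 and the adjusted p reached 0.16. The values for CPN-/- CRY2 against CPN-/- and for the direct comparison were 0.35 ± 0.16 (SE, adjusted p = 0.24) and 0.35 ± 0.15 (SE, adjusted p = 0.18). The first of these was 0.45 (adjusted p = 0.027) without CPN-/- replicate 1.

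Pmaip1 (NCBI gene 58801, chr18:66458604-66465558, plus strand) encodes NOXA, which neutralizes MCL-1. It was the least abundant of the 10 genes, with 17 and 18 counts in CPN-/-, 64 and 55 in the CPN-/- CRY1 libraries, and 1 and 5 in CPN-/- CRY2. These correspond to 0.535 and 0.691 CPM, 1.77 and 1.78 CPM, and 0.0367 and 0.185 CPM. The lines did not overlap, with CPN-/- CRY1 highest and CPN-/- CRY2 lowest. Pmaip1 rose by 1.54 ± 0.31 (SE, adjusted p = 0.015) on the log2 scale in CPN-/- CRY1. In CPN-/- CRY2 the fitted value was -2.41 ± 0.55 (SE, adjusted p = 0.0498), which is just past the threshold. The summed counts were 35, 119 and 6, which at the library totals gives ratios of 2.94 for CPN-/- CRY1 to CPN-/- with an exact 95% Poisson interval of 2.00 to 4.41, and of 0.183 for CPN-/- CRY2 to CPN-/- with an interval of 0.0629 to 0.440. The direct comparison was 3.95 ± 0.45 (SE, adjusted p = 0.0023), with a ratio of 16.1 and an interval of 7.16 to 44.6, and it passed in all 14 alternatives that kept the gene, at 3.23 to 5.44. These intervals cover counting error only, and fitted values for counts this low depend on the prior count of the model. The call in CPN-/- CRY1 was lost with either CPN-/- CRY1 library left out, at fitted values of 1.54 and 1.55 and an adjusted p of up to 0.11. In CPN-/- CRY2 the fitted value was -1.69 (adjusted p = 0.28) without CPN-/- CRY2 replicate 1 and -3.90 (adjusted p = 0.080) without replicate 2.

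Sesn1, Zmat3, Phlda3 and Eda2r act in stress, RNA and growth signalling. Sesn1 (NCBI gene 140742, chr10:41810574-41908436, plus strand) encodes sestrin 1, which restrains mTORC1. It was at 59.0 and 54.3 CPM in CPN-/-, 48.9 and 46.7 in the CPN-/- CRY1 libraries, and 66.9 and 65.9 in CPN-/- CRY2. CPN-/- lay between the reconstituted lines, and no line overlapped another. The values against CPN-/- were -0.25 ± 0.10 (SE, adjusted p = 0.10) in CPN-/- CRY1 and 0.23 ± 0.10 (SE, adjusted p = 0.20) in CPN-/- CRY2. Neither passed in the reported fit, and both passed with each library's trend with exonic length removed. In CPN-/- CRY1 the value passed with either CPN-/- library left out, at -0.18 (adjusted p = 0.033) without replicate 1 and -0.30 (adjusted p = 0.0010) without replicate 2. For CPN-/- CRY2 it was 0.29 (adjusted p = 0.0012) and 0.18 (adjusted p = 0.078) in these fits. The direct difference of -0.47 ± 0.10 (SE, adjusted p = 0.019) passed, and the call was lost at an adjusted p of up to 0.20 with any 1 of the 4 reconstituted libraries left out, at values between -0.51 and -0.44.

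Zmat3 (NCBI gene 22401, chr3:32334792-32365665, minus strand) encodes an RNA-binding zinc finger protein. Zmat3 was at 58.5 and 49.4 CPM in CPN-/-, 61.7 and 61.2 in the CPN-/- CRY1 libraries, and 81.7 and 75.6 in CPN-/- CRY2. It was highest in CPN-/- CRY2, in both libraries. Zmat3 rose by 0.54 ± 0.11 (SE, adjusted p = 0.039) on the log2 scale in CPN-/- CRY2, or 1.46-fold, and by 0.32 (adjusted p = 0.032) with the trend with exonic length removed. In CPN-/- CRY1 the value was 0.19 ± 0.11 (SE, adjusted p = 0.25), and it was 0.32 (adjusted p = 0.00042) without CPN-/- replicate 1, 0.08 without replicate 2 and -0.02 with that trend removed. The reconstituted lines differed by -0.36 ± 0.11 (SE, adjusted p = 0.080), while the median of all tested genes on chromosome 3 in the same comparison was -0.40.

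Phlda3 (NCBI gene 27280, chr1:135766085-135769134, plus strand) encodes a pleckstrin homology protein that competes with AKT for the membrane. It was at 61.0 and 83.2 CPM in CPN-/-, 94.4 and 87.9 in the CPN-/- CRY1 libraries, and 75.1 and 71.6 in CPN-/- CRY2. The CPN-/- libraries lay on both sides of the CPN-/- CRY2 libraries. The value in CPN-/- CRY1 was 0.34 ± 0.15 (SE, adjusted p = 0.14), and was 0.13 without CPN-/- replicate 1, 0.59 (adjusted p = 2.1e-08) without replicate 2 and 0.60 (adjusted p = 0.00061) with the trend with exonic length removed. In CPN-/- CRY2 it was 0.03 ± 0.15 (SE, adjusted p = 0.93), and it passed in opposite directions with 1 CPN-/- library left out, at -0.18 (adjusted p = 0.029) without replicate 1 and 0.28 (adjusted p = 0.0049) without replicate 2. The direct difference was 0.31 ± 0.15 (SE, adjusted p = 0.22).

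Eda2r (NCBI gene 245527, chrX:97333837-97377234, minus strand) encodes a receptor of the TNF receptor family that binds ectodysplasin A2. It was at 5.44 and 3.72 CPM in CPN-/-, 9.44 and 9.50 in the CPN-/- CRY1 libraries, and 6.03 and 6.26 in CPN-/- CRY2, from 97 to 341 counts per library. The lines did not overlap, and CPN-/- was the lowest and the most spread. Eda2r rose by 1.04 ± 0.19 (SE, adjusted p = 0.010) on the log2 scale in CPN-/- CRY1, or 2.05-fold. The value was 1.35 without CPN-/- replicate 1 and 0.81 without replicate 2, both of which passed, and the call was lost with either CPN-/- CRY1 library left out at an adjusted p of up to 0.084. The value in CPN-/- CRY2 was 0.41 ± 0.19 (SE, adjusted p = 0.24), and was 0.72 (adjusted p = 0.00081) without CPN-/- replicate 1 and 0.18 without replicate 2. The direct difference was 0.62 ± 0.18 (SE, adjusted p = 0.062).

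**Figure D3:**
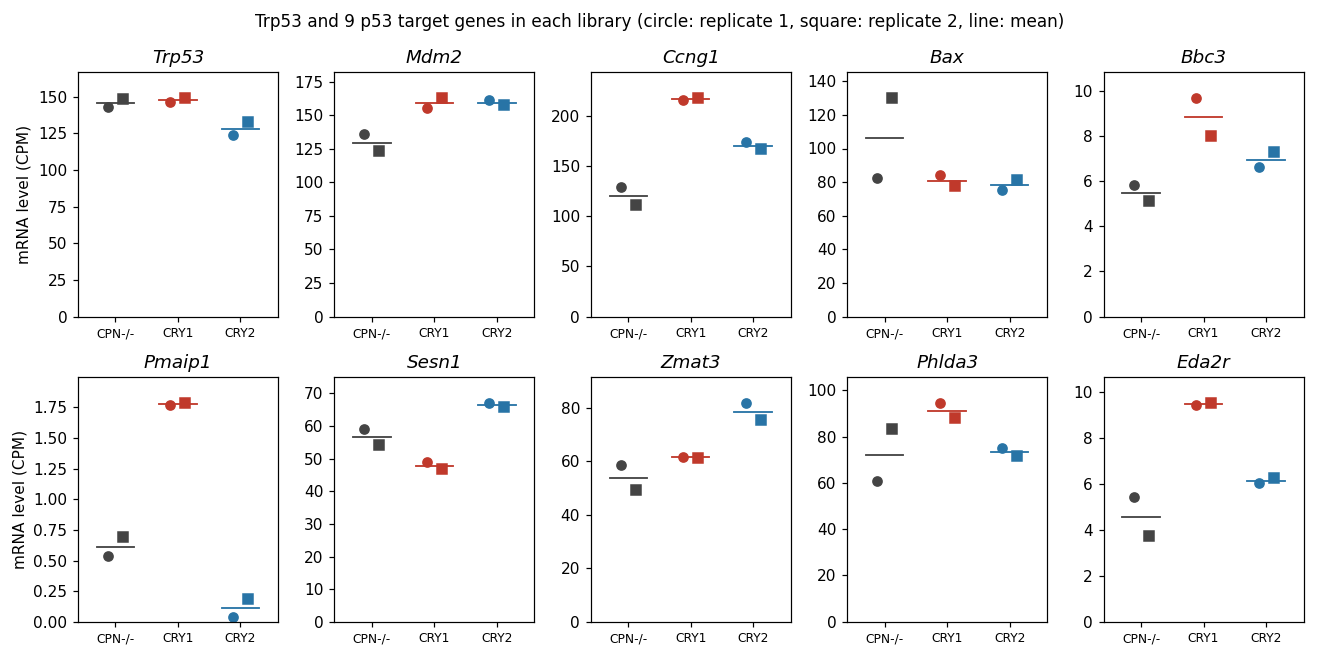
mRNA level in CPM (y axis, from 0) of each gene in the 6 libraries, by line (x axis); circles are replicate 1, squares replicate 2 and lines the mean of a line. Ccng1, Bbc3, Pmaip1, Eda2r and also Phlda3, which was not called, are highest in both CPN-/- CRY1 libraries. Sesn1 and Zmat3 are highest in both CPN-/- CRY2 libraries, and Bax is high only in CPN-/- replicate 2 at 130 CPM.

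Levels can be compared between genes only per length. In CPN-/- the mean level ran, in CPM per kilobase of exon, from Bax at 122 and Trp53 at 78.0 over Phlda3 at 50.2, Mdm2 at 41.3 and Ccng1 at 34.3 to Sesn1 at 14.3 and Zmat3 at 6.92. Bbc3 at 3.01, Eda2r at 0.955 and Pmaip1 at 0.224 were the lowest. The order of the first 5 was the same in CPN-/- CRY2, at 90.4, 68.7, 51.1, 50.6 and 48.6, whereas in CPN-/- CRY1 Ccng1 at 61.8 lay above Mdm2 at 50.6. The libraries of Phlda3 and Mdm2 overlapped on this scale in CPN-/- and CPN-/- CRY2, and those of Phlda3 and Ccng1 in CPN-/- CRY1.

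Genes of a chromosome can move together in single colonies, and each gene was set beside the median of the tested genes on its chromosome. In CPN-/- CRY1 against CPN-/-, Ccng1 at 0.85 and Trp53 at 0.02 share chromosome 11 with a median of -0.11, and Bbc3 at 0.69 and Bax at -0.39 share chromosome 7 with a median of -0.01. The medians of chromosome 18 for Pmaip1 and X for Eda2r were 0.10 and 0.07. The 4 called genes thus lay at least 0.70 above their chromosome medians. Among the chromosomes of the 10 genes, the largest shift was that of chromosome 3 at -0.28, and Zmat3 lay 0.47 above it. In CPN-/- CRY2 the medians for the 10 genes lay between -0.03 and 0.11, and Zmat3 and Ccng1 lay 0.43 and 0.50 above theirs. Sesn1, at -0.47 in the direct comparison, lay 0.31 below the chromosome 10 median of -0.16.

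**Figure D4:**
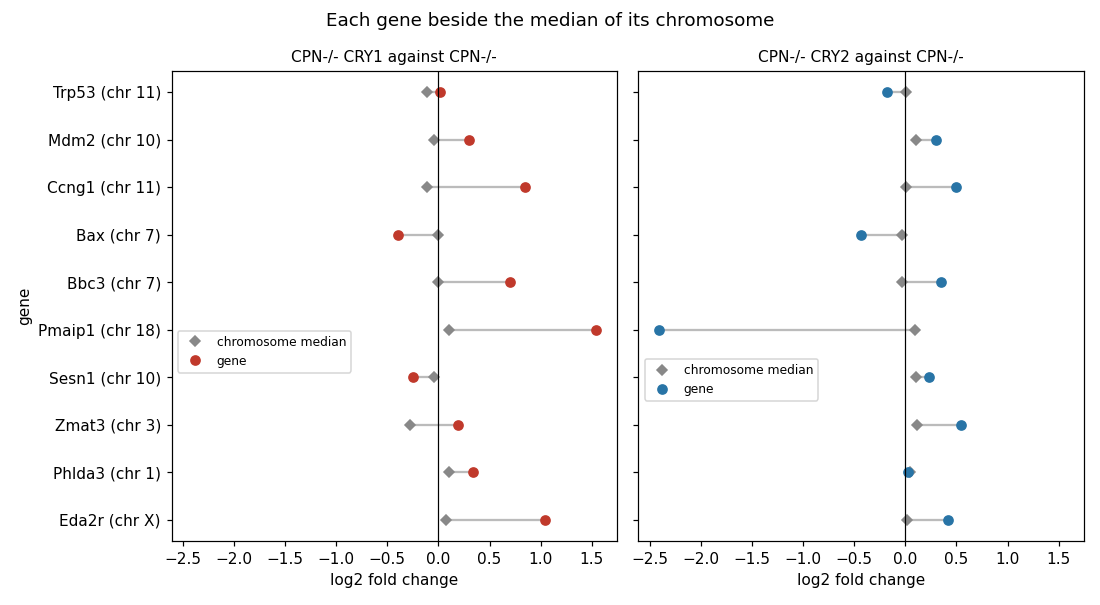
Log2 fold change (x axis, the same scale in both panels) of each gene (circles, y axis) and median of all tested genes on its chromosome (diamonds), for CPN-/- CRY1 on the left and CPN-/- CRY2 on the right, each against CPN-/-. The diamonds stay between -0.28 and 0.11, and the circles of Ccng1, Bbc3, Pmaip1 and Eda2r lie to the right of them in the left panel, at 0.69 to 1.54.

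A second list, also chosen with earlier results of these data known, held 58 other genes of the p53 pathway in 5 roles. Of these, 54 passed the filter. In CPN-/- CRY1 against CPN-/-, 19 of the 54 passed the test, with 12 higher and 7 lower, at a median of 0.13. This is 35.2% of the list, beside 24.3% of all tested genes. The count was 9 with only the 4 libraries of the comparison, beside 12.9% of all genes tested in that fit. It ranged from 3 to 40 when 1 library was left out, with the highest count without CPN-/- replicate 1, where 63.0% of all genes passed, and the lowest without CPN-/- CRY1 replicate 1, where 4.74% did. In CPN-/- CRY2, 5 of the 54 passed, with 3 higher and 2 lower, at a median of 0.18, which is 9.26% of the list beside 6.66% of all tested genes, and the count ranged from 1 to 38 when 1 library was left out, with 38 without CPN-/- replicate 1, where 56.4% of all genes passed. Between the reconstituted lines 5 of 54 passed, beside 16.3% of all tested genes, with 3 higher and 2 lower in CPN-/- CRY1, and 25 passed when only these 4 libraries were fitted, beside 49.7% of all genes in that fit. The calls went in both directions in each comparison.

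Of 15 tested regulators and relatives of p53, 1 was higher in CPN-/- CRY1 by edgeR and 4 by DESeq2's Wald test. Over all genes 24.3% passed by edgeR and 18.5% by DESeq2. None passed in CPN-/- CRY2 by either tool, beside 6.66% and 6.47% of all genes. There 3 had an unadjusted edgeR p under 0.05, a limit that at least 6.66% of all tested genes pass. Mdm4, which encodes an inhibitor of p53 related to MDM2, was at 47.9 and 29.0 CPM in CPN-/- and between 52.96 and 55.95 CPM in the 4 other libraries. The differences from CPN-/-, at 0.53 (adjusted p = 0.11) and 0.49 (adjusted p = 0.21), did not pass, and the CPN-/- libraries, of a gene with 10859 exonic bases, differed by -0.72. With the length trend removed these differences from CPN-/- were 0.27 (adjusted p = 0.016) and 0.19 (adjusted p = 0.097). Without CPN-/- replicate 1 both passed, at 0.94 (adjusted p = 1.7e-12) and 0.90 (adjusted p = 1.1e-11), and without replicate 2 they were 0.22 (adjusted p = 0.016) and 0.19 (adjusted p = 0.077). Cdkn2a, whose products include p16INK4A and the MDM2 inhibitor p19ARF, was at 390 and 533 CPM in CPN-/- and between 355 and 409 CPM in the others, at differences of -0.26 with an adjusted p of 0.27 and -0.31 with one of 0.28. Without CPN-/- replicate 1 these were -0.47 (adjusted p = 1.7e-06) and -0.52 (adjusted p = 4.1e-07), and without replicate 2 they were -0.01 and -0.06. The counts per gene do not separate its products.

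Among 13 cell cycle and feedback targets, 4 were higher and 2 lower in CPN-/- CRY1, and 1 was higher and 1 lower in CPN-/- CRY2. Beside these, 11.2% of all tested genes were higher and 13.1% lower in CPN-/- CRY1. In CPN-/- CRY2, 2.58% were higher and 4.08% lower. Cdkn1a, which encodes the cyclin-dependent kinase inhibitor p21, was at 58.2 and 58.7 CPM in CPN-/-, 123 and 118 in the CPN-/- CRY1 libraries, and 85.6 and 87.1 in CPN-/- CRY2. The lines did not overlap, in the same order as for Ccng1. Cdkn1a rose by 1.04 ± 0.09 (SE, adjusted p = 0.00068) in CPN-/- CRY1, in all 15 alternatives, and by 0.56 ± 0.09 (SE, adjusted p = 0.013) in CPN-/- CRY2, and the lines differed by 0.48 (adjusted p = 0.014). Both the call in CPN-/- CRY2 and that difference were lost when any reconstituted library was left out. Gadd45a, which encodes a growth arrest protein, moved the other way, from 39.0 and 53.2 CPM to 21.4 and 21.1 and to 26.1 and 28.1. Gadd45a fell by 1.11 (adjusted p = 0.0045) in CPN-/- CRY1. That call was lost with either CPN-/- CRY1 library left out, at values of -1.125 and -1.104. It fell by 0.77 (adjusted p = 0.035) in CPN-/- CRY2, a call lost with any reconstituted library left out. Without CPN-/- replicate 1 the values were -1.323 and -0.975, and without replicate 2 they were -0.868 and -0.519.

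Among 10 cell death targets, 4 were higher and 1 lower in CPN-/- CRY1, and 2 were higher and 1 lower in CPN-/- CRY2. The shares of all tested genes were 11.2% higher and 13.1% lower in CPN-/- CRY1, and 2.58% higher and 4.08% lower in CPN-/- CRY2. Fas, the death receptor, fell from 20.1 and 25.9 CPM in CPN-/- to 7.36 and 6.97 in the CPN-/- CRY1 libraries and 5.33 and 5.30 in CPN-/- CRY2. Its log2 fold changes were -1.68 (adjusted p = 0.00087) and -2.11 (adjusted p = 0.00090), and both passed in all 15 alternatives. Aen, an apoptosis-enhancing nuclease, rose by 0.68 (adjusted p = 0.0053) and 0.56 (adjusted p = 0.023), and Trp53inp1, a stress protein that promotes p53 activity, rose by 0.98 (adjusted p = 0.026) in CPN-/- CRY2 and by 0.63 (adjusted p = 0.046) in CPN-/- CRY1. The Aen call in CPN-/- CRY1 was lost with either CPN-/- CRY1 library left out, and the other 3 were lost with any 1 of the reconstituted libraries left out. Trp53inp1 in CPN-/- CRY1 also did not pass without TMM scaling (library size only), with at least 10 counts in every library or with only the 4 libraries of the comparison, and it was 0.94 without CPN-/- replicate 1 and 0.39 without replicate 2, both of which passed.

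Of 5 DNA repair targets, 2 were higher in CPN-/- CRY1, beside 11.2% of all tested genes. None passed by edgeR in CPN-/- CRY2, where 3 had an unadjusted p under 0.05 and DESeq2 called 1. Among 11 metabolism and redox targets, 1 was higher and 4 were lower in CPN-/- CRY1, beside 11.2% and 13.1% of all tested genes. In CPN-/- CRY2 none of these passed by edgeR, 2 had an unadjusted p under 0.05 and DESeq2 called 1. Of all genes in CPN-/- CRY2, 6.66% passed by edgeR and 6.47% by DESeq2. At least 6.66% had an unadjusted p under 0.05. Ddit4, which encodes the mTORC1 inhibitor REDD1, was at 138 and 152 CPM in CPN-/-, 49.5 and 42.6 in the CPN-/- CRY1 libraries, and 121 and 126 in CPN-/- CRY2. It fell by 1.65 (adjusted p = 0.00038) in CPN-/- CRY1, in all 15 alternatives, and the value in CPN-/- CRY2 was -0.23 (adjusted p = 0.25), or -0.30 (adjusted p = 0.00052) without CPN-/- replicate 1. Dcxr, a dicarbonyl and xylulose reductase, fell by 1.18 (adjusted p = 0.0075) in CPN-/- CRY1, and the call was lost with either CPN-/- CRY1 library left out, at -1.28 (adjusted p = 0.062) and -1.09 (adjusted p = 0.085).

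**Figure D5:**
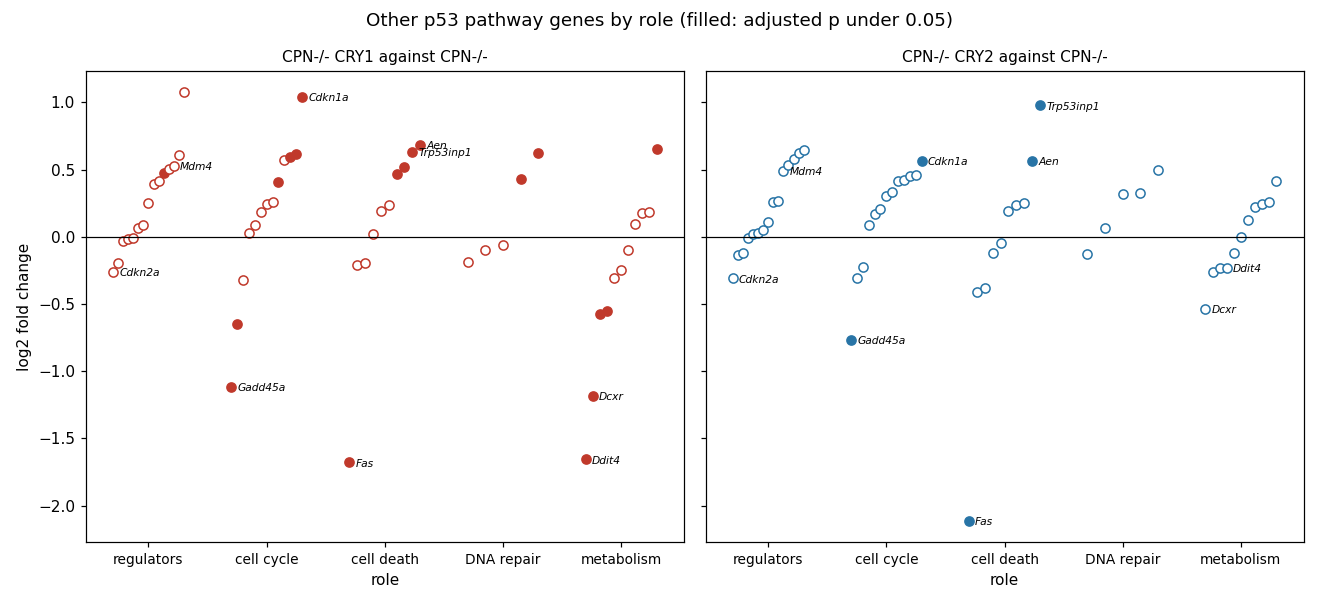
Log2 fold change (y axis) of the 54 tested other p53 pathway genes by role (x axis), in CPN-/- CRY1 on the left and CPN-/- CRY2 on the right, each against CPN-/-; each circle is 1 gene, filled where the adjusted p is under 0.05. Fas is the lowest in both panels at -1.68 and -2.11, and among filled circles Cdkn1a is the highest on the left at 1.04 and Trp53inp1 on the right at 0.98.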

How the data were processed

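The authors read the 6 libraries of stranded mRNA from both ends and used STAR for mapping to mm10 and featureCounts for the counts per gene. The deposited files list, under NCBI gene identifiers, the unnormalized counts of 27179 genes. The annotation, the strand setting and the handling of reads with several matches are not given in the sources used here, and whether separate RNA preparations were separate cultures is not given, so that p-values may cover technical spread only.

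Counts were tested with edgeR 4.0.16 in R 4.3.3. Genes were kept by filterByExpr (minimum count 10, minimum total 15), scaled by TMM, and fitted with the line as the only term to all 6 libraries. The two-sided quasi-likelihood test was adjusted by Benjamini-Hochberg over 14069 genes. Standard errors were derived from the fold change and its F statistic. The steps were tested on simulated counts. Exonic length came from GENCODE, positions and promoters from RefSeq (GRCm38), and near-identical transcripts from BLAST+ 2.17.0 at 95% identity over 150 bases. The alternatives were DESeq2 1.42.0 size factors or its Wald test, library size or upper-quartile scaling, a filter of 1 count in total or of 10 counts per library, a replicate term, fits to 4 libraries, stricter thresholds (adjusted p of 0.01, or an absolute log2 value of 1), a loess trend with length (span 0.5) removed, chromosome medians subtracted, and each library left out.

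The 10 genes and the lists were chosen with earlier results of these data known. Named were all 10 genes, Mdm4, Cdkn2a and Cdkn1a, and per comparison with CPN-/- the 6 other pathway genes with the largest change among those called with a mean of at least 100 counts and 1 direction in all pairs of libraries, of which 5 were found for CPN-/- CRY2. With 2 libraries per line, no exact permutation test can pass the threshold.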

Additional observations from a re-analysis of the deposited data

Results flagged for a closer look

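Of both lists, 7 genes differed between the reconstituted lines, each grown from a single colony, by the direct test (edgeR's quasi-likelihood test, Benjamini-Hochberg adjustment). These were 2 of the 10 genes and 5 of the 54 other pathway genes, beside 16.3% of all tested genes, and the 4 that the rule for named genes covers are given here. Pmaip1 differed by 3.95 on the log2 scale (adjusted p = 0.0023), with a rise in CPN-/- CRY1 and a fall in CPN-/- CRY2, on 119 against 6 summed counts. Sesn1 differed by -0.47 (adjusted p = 0.019), with CPN-/- between the lines. Cdkn1a differed by 0.48 (adjusted p = 0.014), with a rise in both lines. Ddit4 differed by -1.42 (adjusted p = 0.00064), with a fall in CPN-/- CRY1. The calls of Sesn1 and Cdkn1a were lost with any 1 of the 4 reconstituted libraries left out, at values of -0.51 to -0.44 and 0.44 to 0.52.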

How the results depend on the processing

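For the 10 genes, the count called in CPN-/- CRY1 against CPN-/- (4 in the reported fit) was 1 at an adjusted p under 0.01, 2 with a log2 limit of 1 added, 8 with the length trend removed, and 1 to 8 with 1 library left out. For CPN-/- CRY2 against CPN-/- (3) it was 0 with at least 10 counts in every library (which drops Pmaip1), with only 4 libraries and at 0.01, 1 with the fold limit, 5 with the length trend removed, and 0 to 10 with 1 library left out. For the direct comparison (2) it was 1 with at least 10 counts, at 0.01 and with the fold limit, 8 with only 4 libraries, 7 with the length trend removed, and 1 to 8 with 1 library left out. For the pathway list, the counts in that order of comparisons (19, 5 and 5) were 9, 1 and 25 with only 4 libraries, 8, 1 and 1 at 0.01, 5, 1 and 1 with the fold limit, and ranged over 3 to 40, 1 to 38 and 1 to 25 with 1 library left out. With the length trend removed the counts were 28, 17 and 16. DESeq2's Wald test gave 9 in CPN-/- CRY2 against CPN-/-, beside 6.47% of all genes. Of all tested genes, 8.42%, 2.58% and 6.07% passed at 0.01, and 7.74%, 3.74% and 5.89% with the fold limit. With at least 10 counts in every library the shares were 22.5%, 4.5% and 15%. The share of all tested genes moved too, from 24.3%, 6.66% and 16.3% to 39.7%, 17.3% and 31.6% with the length trend removed, 12.9%, 3.43% and 49.7% with only 4 libraries, and 4.64% to 63.0%, 1.37% to 56.4% and 3.32% to 48.4% with 1 library left out. Without a CPN-/- library the remaining 1 was assumed to vary like the other lines, which leaves the large CPN-/- difference out of the estimated spread.

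With the replicate number as a block the counts were 4, 3 and 2 for the 10 genes and 22, 5 and 5 for the list. The shares of all tested genes were 24.6%, 6.94% and 15.6%. The replicate numbers only name the libraries: the replicate differences of the lines correlated at -0.13, 0.23 and -0.09 across genes.

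Signs turned only for values that did not pass in the reported fit. Trp53 in CPN-/- CRY1 was -0.009 with upper-quartile factors and -0.008 without CPN-/- replicate 1, with a leave-one-out range of -0.008 to 0.054. With the length trend removed Zmat3 and Cdkn2a in CPN-/- CRY1 were -0.015 and 0.046. Phlda3 in CPN-/- CRY2 was -0.182 (adjusted p = 0.029) without CPN-/- replicate 1, 0.275 (adjusted p = 0.0049) without CPN-/- replicate 2 and -0.004 without CPN-/- CRY2 replicate 1, with a leave-one-out range of -0.182 to 0.275. In the direct comparison Mdm2 was 0.006 with DESeq2 size factors, 0.00047 with library size, 0.008 without the filter, 0.002 with at least 10 counts, 7.9e-05 with the replicate block, 0.001 with only 4 libraries and 0.009 with DESeq2's Wald test. Without CPN-/- CRY1 replicate 1 or CPN-/- CRY2 replicate 1, Mdm2 was 0.031 and 0.017, Bax -0.013 and -0.007, and Cdkn2a -0.039 and -0.017, and the leave-one-out ranges were -0.032 to 0.031, -0.013 to 0.101 and -0.039 to 0.134. The causes were not tested. Depth limited Pmaip1, with as few as 1 count in a library.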
